A study of Sus scrofa with 12 samples.

Results

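The genes described here encode laminin chains, which build the basement membrane, and integrin chains, the cell-surface receptors that hold cells to it. They are the 38 of 21674 genes in the coding-gene table whose symbol is LAMA, LAMB or LAMC with a digit, or ITGA or ITGB with 1 to 3 further letters or digits. The 38 comprise 5 laminin alpha chains, 4 beta chains and 3 gamma chains, 17 integrin alpha chains and 8 integrin beta chains. The remaining gene, ITGBL1, encodes a protein that resembles an integrin beta chain; it matches the rule and is not an integrin chain.

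Whole testes were taken by castration from boars of the Hezuo (HZ) and Landrace (LC) breeds, which were kept under the same conditions. Group Ha held HZ boars aged 30 days, Hb HZ boars aged 120 days, La Landrace boars aged 30 days and Lb Landrace boars aged 120 days, with 3 boars and 3 libraries in each. Libraries were strand-specific and depleted of ribosomal RNA, and each library came from 1 boar, so a value is a bulk level over the cell types of the organ. Ha vs Hb and La vs Lb ask what changed with age in each breed, Ha vs La and Hb vs Lb what differed between the breeds at each age.

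A laminin is a trimer of an alpha, a beta and a gamma chain, which assembles into a sheet beneath epithelia and around muscle, nerve and vessels. An integrin is a pair of an alpha and a beta chain; the pair sets the ligand, and some pairs bind laminin while others bind collagen, fibronectin or proteins on other cells. In the testis, laminins and integrins lie in the wall of the seminiferous tubule, where Sertoli cells, spermatogonia and peritubular cells rest on the basement membrane, and also at the junction of Sertoli cells with elongating spermatids.

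The estimated counts of a library came to between 17165519 (Hb3) and 23758931 (Ha1). The 38 genes took up 0.367% ± 0.032 of the counts in Ha, 0.107% ± 0.0164 in Hb, 0.415% ± 0.0347 in La and 0.176% ± 0.0207 in Lb (mean ± SD, n = 3 each). The highest share at 120 days, 0.196% in Lb3, lay under the lowest share at 30 days, 0.343% in Ha1. Levels are given in CPM, counts per 1000000 counts of the library, scaled by TMM (trimmed mean of M values) over the 12 libraries, and 3 values for a group follow the order of its libraries 1 to 3. Levels of different genes are compared only in FPKM, the deposited fragments per kilobase of transcript and per 1000000 mapped fragments. Differences are log2 fold changes, the second group over the first, with a standard error (SE). A gene was called higher or lower at an edgeR adjusted p under 0.05 with an absolute log2 fold change over 1; the p measures the difference against the spread between boars of a group. The filter on low counts was passed by 35 of the 38 genes in Ha vs Hb, by 36 in each of the other 3 pairs of groups and by 37 in the test of the interaction. ITGB6 (at most 11 counts in a library) was tested nowhere, LAMB4 (at most 15) was tested only in the interaction, and ITGAE (at most 48) was not tested in Ha vs Hb.

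Listed markers of testis cell types were read beside these genes. The lists were chosen with earlier results of these data known. Spermatid markers, led by PRM1, summed to 4.99, 5.54 and 6.48 CPM in Ha, 6524, 5789 and 8232 in Hb, 8.87, 7.74 and 4.41 in La, and 4193, 3452 and 3154 in Lb. They were under 10 CPM in each 30-day library and over 3000 CPM in each 120-day library. Leydig cell markers, led by the steroid enzyme CYP17A1, summed to 10090, 9586 and 8750 CPM in Ha, 4066, 331 and 268 in Hb, 13680, 9326 and 11210 in La, and 4922, 7417 and 3086 in Lb. For these markers Hb1 stood apart from Hb2 and Hb3, which lay below each of the other 10 libraries. Over all counts Hb2 was the farther one: the chi-square per gene was 95 for Hb1 with Hb2, 59.7 for Hb2 with Hb3 and 41.7 for Hb1 with Hb3, and 17.8 to 46.1 for the 9 pairs within the other groups. Laminin and integrin calls, and leading chains, that turn on Hb1 or Hb2 are named below. Peritubular and stromal markers, led by COL3A1, summed to 4731, 4586 and 4509 CPM in Ha, 608, 354 and 255 in Hb, 6908, 6180 and 7613 in La, and 3084, 3007 and 2571 in Lb. They were lowest in Hb, where no library reached the level of any Lb library. Each marker gene in the table had counts in at least 1 library.

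Ha vs Hb, the change with age in HZ boars, was mainly a fall. Of the 35 laminin and integrin genes tested, 20 were called lower at 120 days (57.1%), where 23.2% of the 16548 genes tested were called lower. Another 2, ITGAM and ITGB4, were called higher (5.71%), where the share over the genes tested was 28.2%. The 20 included 6 of 11 laminin chains tested, 10 of 16 integrin alpha chains and 4 of 7 integrin beta chains, with log2 fold changes from -4.01 (ITGA7) to -1.07 (ITGB5). The median log2 fold change was -1.5 over the 35 and -0.02 over the genes tested. Of the lower calls, those of ITGA4, ITGA7, ITGAD and ITGB3 ended in limma on log2(FPKM + 1). Levels are relative to the library as a whole. In bulk RNA, fewer cells of a type, less RNA in each cell and more RNA from other cells cannot be told apart. Among the cell type markers, lower calls were made for 8 of 10 peritubular and stromal, 5 of 5 endothelial, 5 of 5 macrophage, 4 of 5 leukocyte, 4 of 8 Sertoli, 4 of 7 Leydig and 2 of 3 platelet markers tested. Higher calls were made for 9 of 9 spermatid and 8 of 8 spermatocyte markers tested. Spermatogonial markers were split (3 higher and 6 lower of 11), as were those of Schwann cells and nerve (1 higher and 2 lower of 4) and of epithelium (2 higher and 3 lower of 5). The part of these cell types in the fall was not tested. With 1 library left out, 17 (without Hb3) to 21 (without Ha1) genes were called lower; the higher calls fell to 1 without Hb1 or Hb2 and to 0 without Ha1, Ha2, Ha3 or Hb3. Scaling by the total count alone moved the median of the genes tested to -0.33 and that of the 35 to -1.79.

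La vs Lb, the change with age in Landrace boars, was again mainly a fall. Of the 36 genes tested, 19 were called lower at 120 days (52.8%), where 20.1% of the 16637 genes tested were called lower. LAMB3 alone was called higher (2.78%), where the share over the genes tested was 27.5%. The 19 included 6 of 11 laminin chains tested, 9 of 17 integrin alpha chains and 4 of 7 integrin beta chains, with log2 fold changes from -2.69 (ITGA4) to -1.01 (LAMB1). The median was -1.05 over the 36 and 0.01 over the genes tested. Lower calls of ITGA4, ITGAD and ITGB3 again ended in limma on log2(FPKM + 1). Cell type markers called lower were 5 of 10 peritubular and stromal, 3 of 5 endothelial, 4 of 5 macrophage, 5 of 5 leukocyte, 4 of 8 Sertoli, 5 of 7 Leydig and 2 of 3 platelet markers tested. All 9 spermatid and 8 spermatocyte markers tested were called higher, as was 1 peritubular and stromal marker. Spermatogonial markers were again split (4 higher and 5 lower of 11), as were those of Schwann cells and nerve (2 higher and 1 lower of 5) and of epithelium (2 higher and 2 lower of 5). Their part in the fall was not tested. The higher call ended without La1, La3 or Lb2, and without Lb3 there were 2; with any 1 library left out, 18 or 19 genes were called lower. Scaling by the total count alone moved the median of the genes tested to -0.16 and that of the 36 to -1.22.

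The 2 age comparisons share no library. Lower calls in both were made for 18 genes, which is 90% of the list in HZ and 94.7% of that in Landrace boars. Over the genes tested, 2492 were called lower in both, 64.8% of those in HZ and 74.3% of those in Landrace boars. They were the laminin chains LAMA1, LAMA2, LAMB2, LAMC1 and LAMC3, the integrin alpha chains ITGA2, ITGA4, ITGA5, ITGA6, ITGA9, ITGA11, ITGAD, ITGAL and ITGAV, and the integrin beta chains ITGB2, ITGB3, ITGB5 and ITGB7. With all libraries of a pair in edgeR, ITGA7 and LAMA4 were called lower in HZ boars and not in Landrace boars, and LAMB1 the other way round. This split moved with the settings: LAMB1 was also called lower in HZ boars with total counts, in limma on FPKM, and without Ha1 or Hb1, and ITGA7 in Landrace boars with total counts and without La3. The interaction, which tests such a difference directly, was not called for any of these 3, with an edgeR adjusted p of 0.0711 for ITGA7, 0.101 for LAMA4 and 0.844 for LAMB1.

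**Figure D1:**
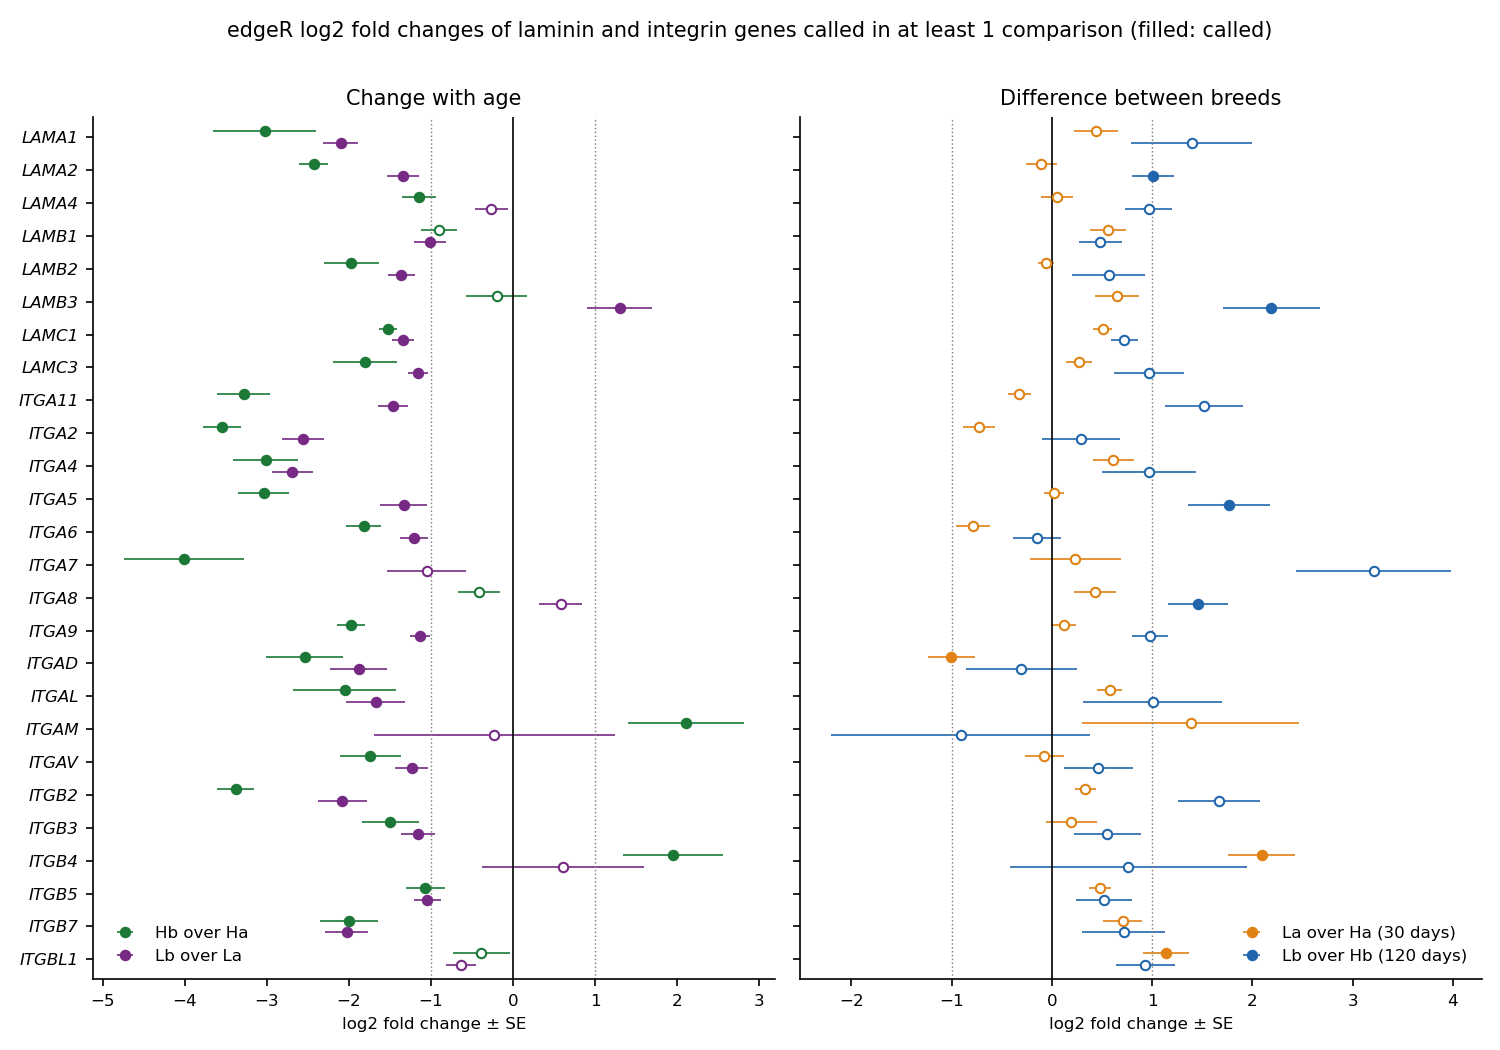
The edgeR log2 fold change (horizontal axis, ± SE) of each laminin and integrin gene that was called in at least 1 of the 4 comparisons, from 30 to 120 days in HZ and Landrace boars (left) and from HZ to Landrace boars at each age (right), with filled points for called genes and dotted lines at the threshold of 1. Most of these genes lie left of 0 for both breeds in the change with age, from -4.01 (ITGA7, HZ boars) upwards.

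Ha vs La compares the breeds at 30 days. Of the 36 genes tested, ITGB4 and ITGBL1 were called higher in Landrace boars (5.56%, where 3.6% of the 15648 genes tested were called higher) and ITGAD was called lower (2.78%, where 4.01% were called lower). In direction alone, 26 of the 36 were higher in La. In either direction, 16 had an unadjusted edgeR p under 0.05, 4 of them lower in La, and 11 had an edgeR adjusted p under 0.05 at any size. Shares over all genes were not taken at these criteria, so these counts are a description alone. The median was 0.28 over the 36 and 0.00 over the genes tested. Ha vs La shares its libraries with the 2 age comparisons, so each is given with its own values. Among the marker lists, 3 of 8 Sertoli, 1 of 7 Leydig, 2 of 5 leukocyte and 2 of 5 Schwann cell and nerve markers were called higher; 1 of 10 spermatogonial, 4 of 8 spermatocyte, 1 of 5 Schwann cell and nerve and 1 of 5 epithelial markers were called lower. Their part in the 3 calls was not tested. ITGAD lost its call without Ha1, Ha2, Ha3, La1 or La2 and ITGBL1 without Ha1 or La3; with 1 library left out the log2 fold change of ITGAD ran from -1.12 to -0.86 and that of ITGBL1 from 1.0 to 1.41.

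At 120 days, in Hb vs Lb, 4 of the 36 genes tested were called higher in Landrace boars, where 2.65% of the 16311 genes tested were called higher. They were the laminin chains LAMA2 and LAMB3 and the integrin alpha chains ITGA5 and ITGA8, with log2 fold changes from 1.01 to 2.19. Where edgeR called 1.2% of the genes tested lower, it called 0 of the 36 lower, 0 of them had an unadjusted p under 0.05 with a lower level in Lb, and DESeq2 and limma on FPKM called 0 as well. In direction alone, 30 of the 36 were higher in Lb, 17 had an unadjusted p under 0.05, and 6 had an edgeR adjusted p under 0.05 at any size. Shares over all genes were not taken at these 3 criteria, so the counts are a description alone. The median was 0.74 over the 36 and 0.00 over the genes tested. Beside these genes, 5 of 10 peritubular and stromal, 1 of 5 endothelial, 1 of 5 macrophage and 1 of 4 Schwann cell and nerve markers tested were called higher in Lb, and 1 of 10 spermatid markers lower. Of the 7 Leydig markers none was called with all 6 libraries, 3 having an unadjusted p under 0.05, and 5 were called higher without Hb1. Their part in the 4 calls was not tested. The count of 4 was 2 without Hb1 (ITGA5 and LAMC3), 5 without Hb2 (LAMA2, LAMB2, ITGA7, ITGA9 and ITGA11) and 0 without Hb3, Lb1, Lb2 or Lb3. Over the genes tested, calls in both directions came to 628 with all 6 libraries and to between 97 and 1029 with 1 left out.

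The interaction compares the change with age between the breeds, as the log2 of the fold change in Landrace boars over that in HZ boars. It was called for 4 of the 37 genes tested, LAMA2, ITGA3, ITGA5 and ITGA11, all with a higher value in Landrace boars (10.8%, where 3.51% of the 17332 genes tested were called higher). Where edgeR called 1.62% of the genes tested lower, it called 0 of the 37 lower, 1 of them had a lower value at an unadjusted p under 0.05, and DESeq2 and limma on FPKM called 0. The median was 0.37 over the 37 and 0.02 over the genes tested. Scaling by the total count alone moved the latter to 0.17 and the former to 0.57. Among the marker lists, the interaction was called higher for 5 of 10 peritubular and stromal, 1 of 5 endothelial, 1 of 5 macrophage, 2 of 5 Schwann cell and nerve, 2 of 11 spermatogonial and 1 of 5 epithelial markers tested, and lower for 2 of 10 spermatid markers; their part in the 4 calls was not tested. The interaction uses the libraries of all the other comparisons. The count of 4 was also 4 without Hb1 (LAMC3 in place of LAMA2) or Lb1 (ITGB2 in place of ITGA5), 5 without Hb2 (ITGA7 and LAMB2 gained, ITGA5 lost), 2 without Ha3, La1 or Lb3, and 1 without Ha1, Ha2, Hb3, La2, La3 or Lb2. ITGA11 was the only 1 of the 4 to be called with each library left out in turn.

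Among the laminin alpha chains, LAMA1 belongs to the laminin of early basement membranes, and LAMA2 to that around muscle cells and the seminiferous tubule. LAMA1 stood at 44.2, 57.1 and 73.7 CPM in Ha, 10.2, 9.70 and 1.38 in Hb, 65.8, 71.1 and 101 in La, and 17.6, 22.7 and 14.5 in Lb. Each 120-day library of a breed lay below each of its 30-day libraries, and Hb3 was lower still than Hb1 and Hb2. LAMA1 fell by a log2 fold change of -3.03 ± 0.63 (edgeR adjusted p = 0.00382) in HZ and -2.10 ± 0.22 (edgeR adjusted p = 4.81e-05) in Landrace boars. LAMA2 stood at 301, 300.3 and 394 CPM in Ha, 51.4, 69.4 and 64.2 in Hb, 312, 251 and 363 in La, and 99.8, 113 and 149 in Lb. LAMA2 levels of the 2 ages did not overlap in either breed, and at 120 days each Lb library lay above each Hb library. LAMA2 fell by a log2 fold change of -2.43 ± 0.18 (edgeR adjusted p = 2.75e-05) in HZ and -1.34 ± 0.19 (edgeR adjusted p = 0.000347) in Landrace boars. The fall was less deep in Landrace boars, with an interaction of 1.07 ± 0.27 (edgeR adjusted p = 0.0379), and at 120 days LAMA2 was higher in Landrace boars by 1.01 ± 0.21 (edgeR adjusted p = 0.0367). These last values sit close to the threshold of 1: the breed difference lost its call without Hb1, Hb3, Lb1, Lb2 or Lb3 (0.81 to 1.14 with 1 library left out) and the interaction without Ha1, Ha2, Ha3, Hb1, Hb3, La1, La2, La3, Lb2 or Lb3 (0.91 to 1.25). The breed difference was also not called by DESeq2, with its size factors in edgeR, by limma on log2(FPKM + 1) or in the fit of all 12 libraries. LAMA4, a chain of vessel walls, was lower at 120 days in HZ boars at a log2 fold change of -1.15 ± 0.20 (edgeR adjusted p = 0.00188), a call that ended without Hb3 (-1.33 to -0.98 with 1 library left out). In Landrace boars LAMA4 differed by -0.27 ± 0.20 (edgeR adjusted p = 0.265) and was not called. LAMA3, of epithelial anchoring laminin, and LAMA5, the alpha chain of many adult epithelia and vessels, were not called in any comparison and ranged over 7.31 to 15.0 CPM and 37.2 to 91.8 CPM. Below the threshold of 1 in size, LAMA5 passed the adjusted p with age, at -0.63 ± 0.21 (edgeR adjusted p = 0.0285) in HZ and -0.46 ± 0.18 (edgeR adjusted p = 0.0456) in Landrace boars. LAMA3 did so in Landrace boars alone, at -0.72 ± 0.21 (edgeR adjusted p = 0.0156). Among the alternatives, limma on log2(FPKM + 0.1) called LAMA5 lower in HZ boars.

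Of the laminin beta chains, LAMB1 and LAMB2 occur in most basement membranes, and LAMB3 in the anchoring laminin of epithelia, with LAMA3. LAMB1 stood at 217, 294 and 366 CPM in Ha, 185, 141 and 144 in Hb, 403, 406 and 485 in La, and 153, 218 and 263 in Lb. The ages did not overlap in either breed, and at 30 days each La library exceeded each Ha library. LAMB1 was called lower in Landrace boars at -1.01 ± 0.20 (edgeR adjusted p = 0.00188), and not in HZ boars at -0.90 ± 0.22 (edgeR adjusted p = 0.00741), where its size missed the threshold of 1, although it was called without Ha1 or Hb1. The call in Landrace boars ended without La3 or Lb1 (-1.21 to -0.82 with 1 library left out), in DESeq2 and with its size factors in edgeR. LAMB2 stood at 441, 425 and 440.3 CPM in Ha, 71.6, 179.6 and 82.8 in Hb, 388, 416 and 453 in La, and 124, 169.8 and 189.6 in Lb. The 30-day libraries lay close together in both breeds, and Hb2 stood above Hb1 and Hb3 without reaching any Ha library. LAMB2 fell by a log2 fold change of -1.97 ± 0.34 (edgeR adjusted p = 0.00149) in HZ and -1.36 ± 0.17 (edgeR adjusted p = 0.000132) in Landrace boars; without Hb2 the value in HZ boars was -2.52. LAMB3 stood at 3.07, 3.74 and 4.04 CPM in Ha, 3.77, 1.81 and 3.89 in Hb, 5.35, 6.88 and 4.85 in La, and 10.1, 23.7 and 7.90 in Lb. LAMB3 was the only laminin chain called higher with age, in Landrace boars, where each Lb library exceeded each La and each Hb library, with Lb2 far above Lb1 and Lb3. It was called higher with age in Landrace boars, by 1.3 ± 0.40 (edgeR adjusted p = 0.0176), and higher in Landrace than in HZ boars at 120 days, by 2.19 ± 0.48 (edgeR adjusted p = 0.0432). The first call ended without La1, La3 or Lb2 (0.68 to 1.58 with 1 library left out) and the second when any 1 of the 6 libraries was left out (1.58 to 2.46); limma on FPKM did not make the first. Epithelial markers summed to 30.5, 51.0 and 28.0 CPM in Lb. EPCAM was highest in Lb2, while KRT8, KRT18 and CDH1 were lowest there, and their part in the LAMB3 calls was not tested. In HZ boars LAMB3 differed by -0.20 ± 0.37 (edgeR adjusted p = 0.652) with age, and the interaction was not called, at 1.49 ± 0.58 (edgeR adjusted p = 0.14). LAMB4 had 0.132 to 0.754 CPM and at most 15 counts.

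Of the laminin gamma chains, LAMC1 is the partner in most laminins, and LAMC3 in rodent testis has been described at the junction of Sertoli cells with elongating spermatids. LAMC3 stood at 352, 398 and 506 CPM in Ha, 200.01, 82.9 and 74.9 in Hb, 488, 484 and 544 in La, and 192, 238 and 242 in Lb. Each 120-day library lay below each 30-day library of its breed, and Hb1 lay above Hb2 and Hb3 and within the range of the Lb libraries. LAMC3 fell by a log2 fold change of -1.81 ± 0.39 (edgeR adjusted p = 0.00466) in HZ and -1.16 ± 0.13 (edgeR adjusted p = 6.42e-05) in Landrace boars; without Hb1 the value in HZ boars was -2.40. At 120 days it was not called between the breeds, at 0.97 ± 0.35 (edgeR adjusted p = 0.137), and it was called higher in Lb without Hb1. LAMC1 ranged over 135 to 612 CPM and fell by a log2 fold change of -1.53 ± 0.11 (edgeR adjusted p = 2.84e-05) in HZ and -1.34 ± 0.13 (edgeR adjusted p = 3.24e-05) in Landrace boars. Its difference between the breeds passed the adjusted p at both ages and missed the threshold of 1 in size, at 0.51 ± 0.09 (edgeR adjusted p = 0.00909) at 30 days and 0.72 ± 0.14 (edgeR adjusted p = 0.0297) at 120 days. On the pig genome assembly, LAMB1 and LAMB4 are neighbours on chromosome 9. LAMA1, LAMA4, LAMB1, LAMB2, LAMB3 and LAMC1 had estimated counts that were not whole in at least 1 library, which leaves their levels less certain. Why these counts were not whole was not tested.

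**Figure D2:**
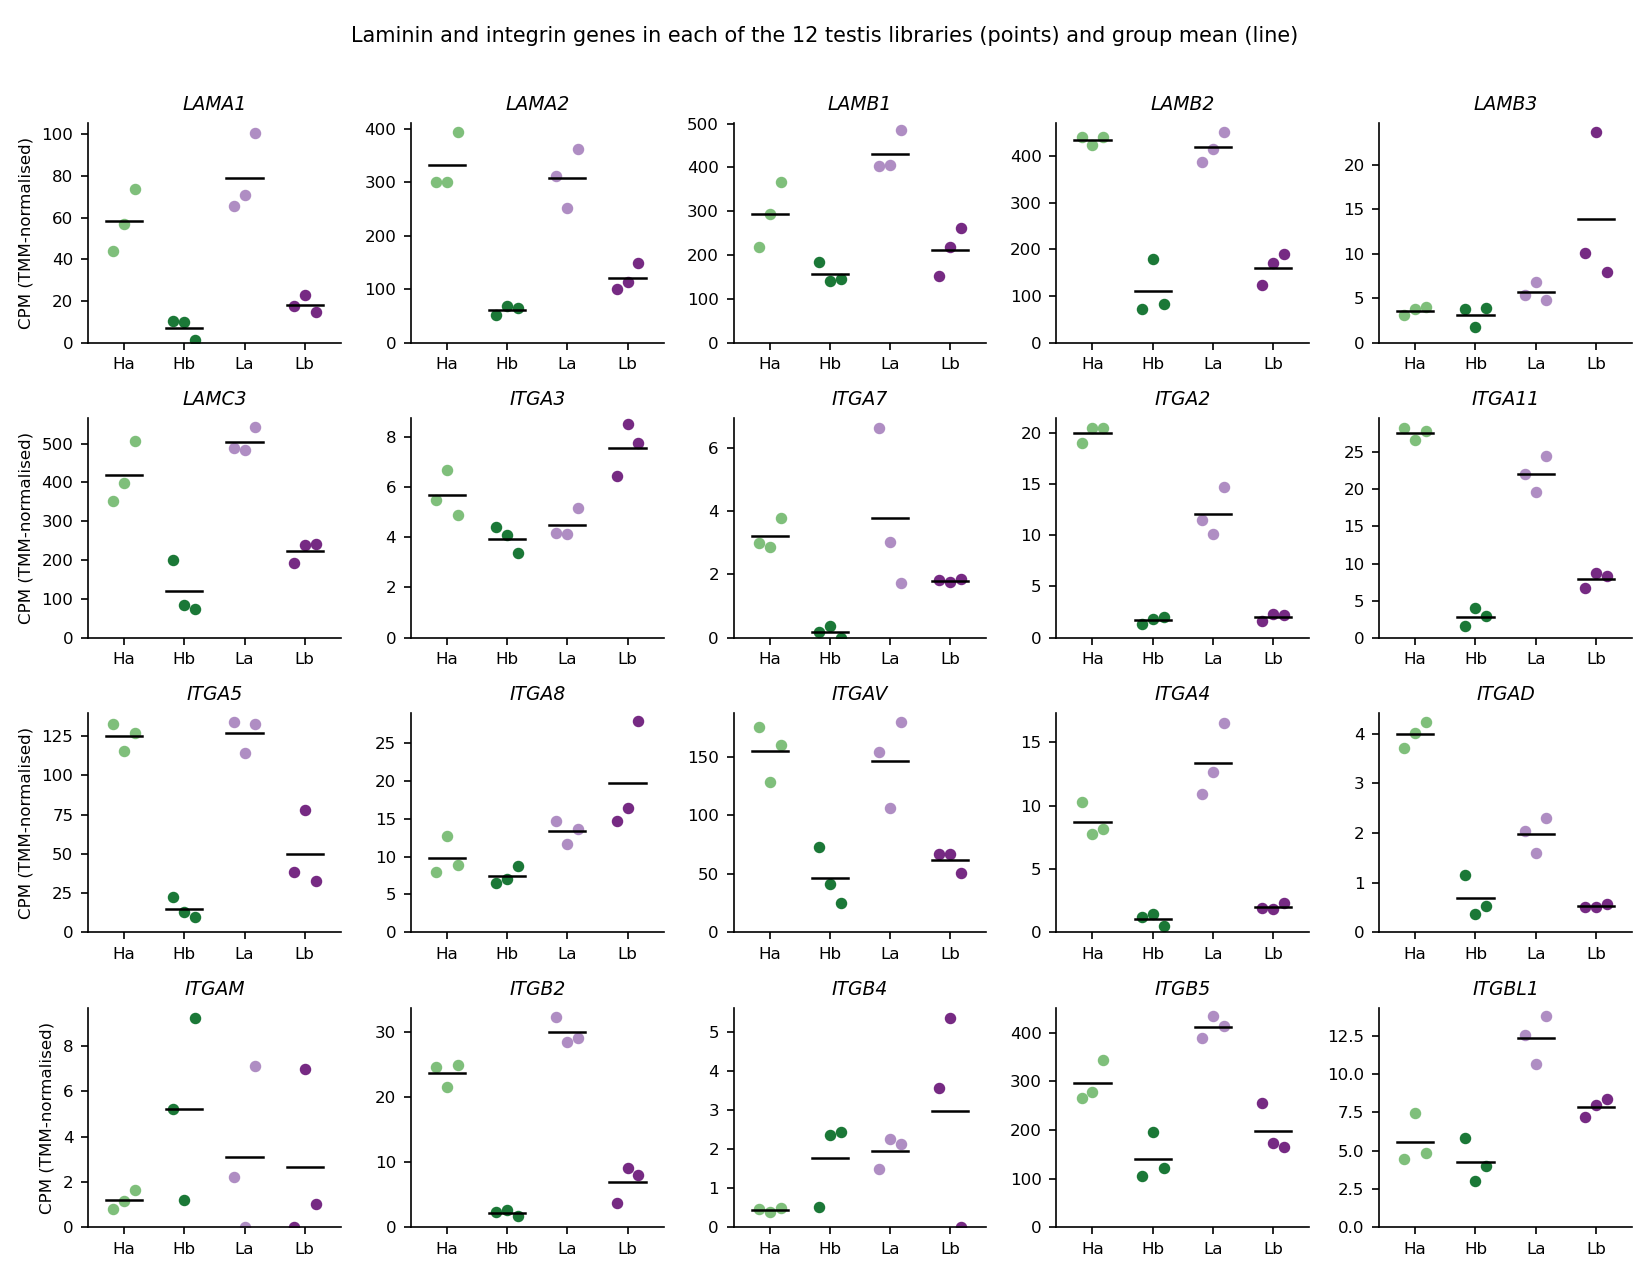
CPM (vertical axis, counts per 1000000, TMM-scaled) of the 20 laminin and integrin genes named in full, in each of the 3 libraries (points) of Ha, Hb, La and Lb, with the group mean (line). LAMA2, for example, lies between 251 and 394 CPM in the 30-day libraries and between 51.4 and 149 CPM in the 120-day libraries.

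The makeup of the laminins is described by the share of each chain in the summed FPKM of its class, as mean ± SD over 3 libraries and without a test. LAMA2 was the leading alpha chain in each group by mean FPKM, with 60.9% ± 1.28 in Ha, 40.2% ± 6.93 in Hb, 54.5% ± 4.58 in La and 45.0% ± 6.20 in Lb. The FPKM share of LAMA5 was 11.2% ± 1.22 in Ha, 25.9% ± 2.66 in Hb, 14.1% ± 0.611 in La and 21.5% ± 5.52 in Lb. That of LAMA4 was 13.0% ± 1.93, 20.3% ± 4.18, 12.9% ± 3.22 and 22.4% ± 4.51 in the same order. In HZ boars each 120-day library had a lower FPKM share of LAMA2, and a higher share of LAMA5 and of LAMA4, than each 30-day library; in Landrace boars this held for LAMA5 and LAMA4, while the LAMA2 share of Lb3 (52.1%) exceeded that of La2 (49.8%). LAMA1 made up 12.2% ± 1.497 of alpha chain FPKM in Ha, 5.20% ± 3.51 in Hb, 16.0% ± 1.59 in La and 7.91% ± 1.98 in Lb, and LAMA3 2.74% ± 0.287, 8.40% ± 2.47, 2.49% ± 0.530 and 3.23% ± 0.132.

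Among beta chains, LAMB2 led at 30 days by mean FPKM share, with 64.0% ± 5.96 in Ha and 53.3% ± 1.03 in La. At 120 days LAMB1 led, with 54.4% ± 13.9 in Hb and 49.0% ± 2.65 in Lb, against 43.5% ± 14.9 and 45.3% ± 1.31 for LAMB2. The HZ libraries at 120 days differed in the order: the FPKM share of LAMB1 was 66.5, 39.2 and 57.6 percent in Hb1, Hb2 and Hb3, and LAMB2 led in Hb2; without Hb1 the mean FPKM shares in Hb were 49.8% for LAMB2 and 48.4% for LAMB1, so the lead of LAMB1 in Hb rests on Hb1. LAMB3 had its largest mean FPKM share in Lb, 5.58% ± 3.02 against 1.03% ± 0.237 in La, and LAMB4 reached at most 0.305%, in Hb1. Among gamma chains, LAMC3 led in Ha (55.8% ± 3.19), La (52.0% ± 1.86) and Lb (54.6% ± 2.12) by mean FPKM share. In Hb its FPKM share was 63.1, 42.7 and 38.4 percent in Hb1, Hb2 and Hb3, and that of LAMC1 35.9, 55.6 and 58.7 percent. LAMC3 thus led in Hb1 and LAMC1 in Hb2 and Hb3; without Hb1 the mean FPKM shares in Hb were 57.2% for LAMC1 and 40.5% for LAMC3. By mean share LAMC1 held 43.6% ± 3.16 of gamma chain FPKM in Ha, 50.1% ± 12.3 in Hb, 47.3% ± 1.75 in La and 43.8% ± 2.39 in Lb.

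Summed over each class, FPKM of the alpha chains came to 41.9 ± 6.55 in Ha, 8.43 ± 0.758 in Hb, 42.5 ± 6.83 in La and 16.4 ± 2.25 in Lb (mean ± SD, n = 3). The beta chain sums of FPKM were 102 ± 9.10, 26.4 ± 6.92, 115 ± 11.2 and 42.8 ± 11.6 in the same order, and the gamma chain sums 104 ± 13.3, 23.1 ± 5.47, 133 ± 10.2 and 45.6 ± 6.51. In each library the beta and the gamma sums exceeded the alpha sum, and in each breed the sums of the 2 ages did not overlap. FPKM differ from CPM in scale between the ages: over the genes tested, the median log2 fold change of FPKM + 0.1 was -0.47 with age in HZ boars, where that of the laminin and integrin genes was -1.72, and -0.27 in Landrace boars, where it was -1.34.

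**Figure D3:**
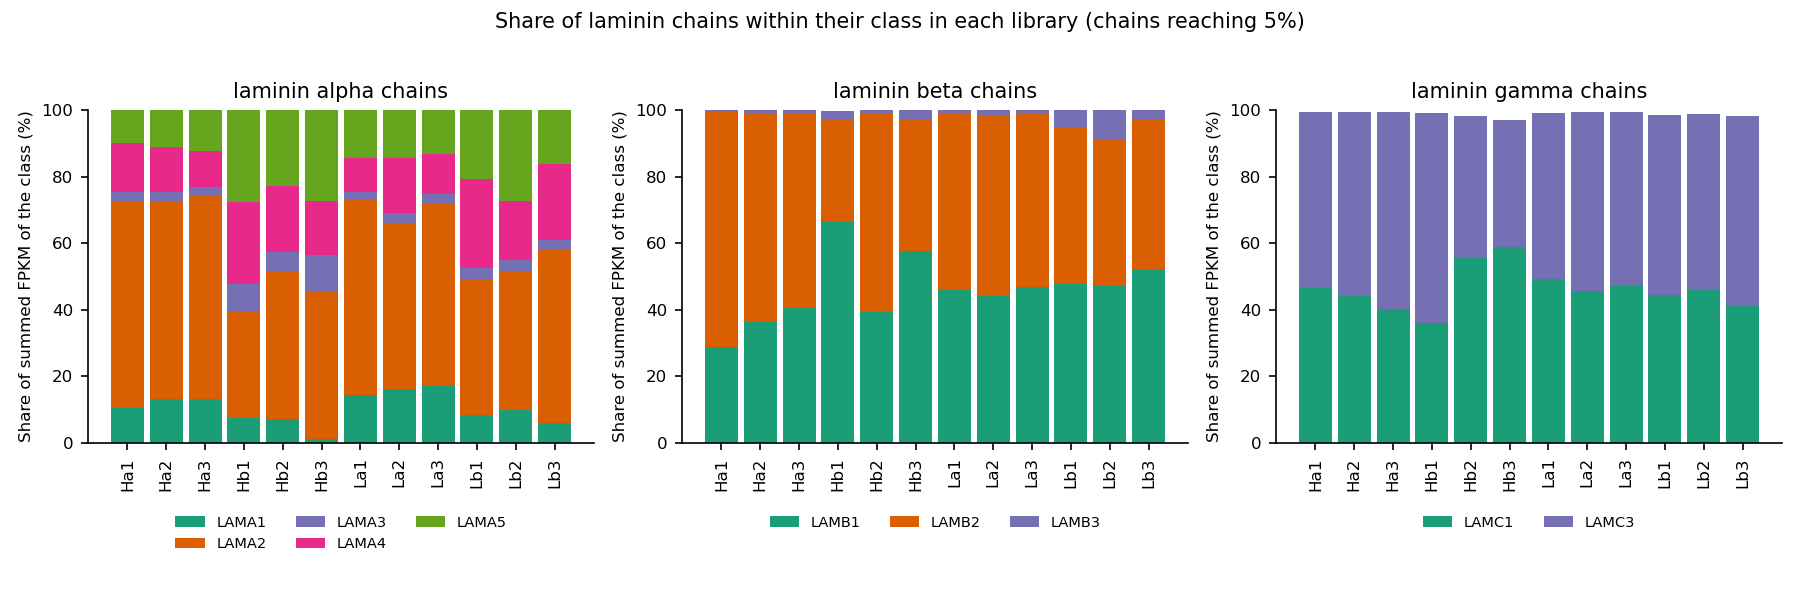
Share of laminin chains in the summed FPKM of their class (vertical axis, percent) in each of the 12 libraries, for alpha, beta and gamma chains that reach 5% in at least 1 library. LAMA2 makes up between 49.8% and 62.0% of the alpha chains in the 30-day libraries and between 32.2% and 52.1% in the 120-day libraries, and Hb1 has the highest share of LAMC3, 63.1%.

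Of the integrin alpha chains that bind laminin, ITGA6 marks spermatogonial stem cells in rodents, ITGA3 is found on epithelia and ITGA7 on muscle. ITGA3 stood at 5.49, 6.71 and 4.89 CPM in Ha, 4.41, 4.09 and 3.36 in Hb, 4.16, 4.12 and 5.17 in La, and 6.43, 8.52 and 7.75 in Lb. Each Lb library exceeded each La library and each Hb library lay below each Ha library, and the breeds did not overlap at 120 days. Neither change with age was called, at -0.53 ± 0.26 (edgeR adjusted p = 0.109) in HZ and 0.77 ± 0.22 (edgeR adjusted p = 0.014) in Landrace boars, and their difference was, with an interaction of 1.28 ± 0.32 (edgeR adjusted p = 0.035). The interaction lost its call without Ha1, Ha2, Hb3, La1, La2, La3, Lb2 or Lb3 (1.15 to 1.44 with 1 library left out) and in limma on log2(FPKM + 1). ITGA7 stood at 2.99, 2.85 and 3.77 CPM in Ha, 0.174, 0.371 and 0 in Hb, 6.62, 3.01 and 1.71 in La, and 1.80, 1.74 and 1.85 in Lb. ITGA7 had 0 counts in Hb3, where 3 counts would be 0.198 CPM, and each Hb library lay far below each Ha and each Lb library; floors of this kind cover counting error only. It fell by a log2 fold change of -4.01 ± 0.73 (edgeR adjusted p = 0.00207) in HZ boars (-5.08 to -3.50 with 1 library left out) and was not called in Landrace boars, at -1.05 ± 0.48 (edgeR adjusted p = 0.0781), where La and Lb overlapped. At 120 days the difference between the breeds, 3.21 ± 0.77 (edgeR adjusted p = 0.0537), and the interaction, 2.93 ± 0.90 (edgeR adjusted p = 0.0711), missed the threshold in edgeR; DESeq2 called both. ITGA6 ranged over 16.0 to 91.1 CPM and fell by a log2 fold change of -1.82 ± 0.22 (edgeR adjusted p = 0.000268) in HZ and -1.21 ± 0.17 (edgeR adjusted p = 0.000339) in Landrace boars. At 30 days ITGA6 was lower in Landrace boars at a log2 fold change of -0.79 ± 0.17 (edgeR adjusted p = 0.0145), a difference under the threshold of 1 in size. ITGA6 and ITGA7 had counts that were not whole, which leaves their levels less certain.

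The collagen-binding alpha chains are ITGA1, ITGA2, ITGA10 and ITGA11, the last found on fibroblasts. ITGA11 stood at 28.4, 26.7 and 27.9 CPM in Ha, 1.57, 3.99 and 2.90 in Hb, 22.1, 19.7 and 24.5 in La, and 6.66, 8.76 and 8.32 in Lb. The ages were far apart in both breeds, and at 120 days each Lb library exceeded each Hb library. ITGA11 fell by a log2 fold change of -3.29 ± 0.32 (edgeR adjusted p = 0.000105) in HZ and -1.47 ± 0.18 (edgeR adjusted p = 0.00014) in Landrace boars. The 2 falls differed, with an interaction of 1.80 ± 0.36 (edgeR adjusted p = 0.0165) that was called with each library left out in turn (1.54 to 2.16) and was not by limma on log2(FPKM + 1). At 120 days ITGA11 stood higher in Landrace boars by 1.52 ± 0.39 (edgeR adjusted p = 0.0631), which missed the threshold in edgeR, while DESeq2 called it. ITGA2 stood at 19.0, 20.5 and 20.5 CPM in Ha, 1.28, 1.86 and 1.98 in Hb, 11.5, 10.1 and 14.7 in La, and 1.62, 2.31 and 2.16 in Lb. ITGA2 dropped to a low level in both breeds, and Hb and Lb overlapped. ITGA2 fell by a log2 fold change of -3.55 ± 0.23 (edgeR adjusted p = 1.72e-05) in HZ and -2.56 ± 0.25 (edgeR adjusted p = 3.87e-05) in Landrace boars. ITGA1 ranged over 23.8 to 77.7 CPM and ITGA10 over 3.81 to 6.78 CPM, and neither was called in any comparison. ITGA1 passed the adjusted p with age below the threshold of 1 in size, at -0.91 ± 0.13 (edgeR adjusted p = 0.000557) in HZ and -0.61 ± 0.20 (edgeR adjusted p = 0.0258) in Landrace boars. Among the alternatives, total counts and limma on log2(FPKM + 0.1) called ITGA1 lower in HZ boars. ITGA1 and ITGA2 are neighbours on chromosome 16, where ITGA1 overlaps PELO and ITGA2 overlaps MOCS2, so reads in the overlaps may be shared. The counts of both were whole in each library.

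ITGA5, the fibronectin receptor chain, ITGAV, the chain of the vitronectin receptors, ITGA8, a receptor for nephronectin, and ITGA2B, of platelets, bind ligands that carry the amino acid motif RGD. ITGA5 stood at 132, 115 and 127 CPM in Ha, 22.8, 13.0 and 9.56 in Hb, 134, 114 and 133 in La, and 38.6, 78.1 and 32.9 in Lb. The breeds overlapped at 30 days and did not overlap at 120 days, where Lb2 lay highest. ITGA5 fell by a log2 fold change of -3.04 ± 0.32 (edgeR adjusted p = 0.000135) in HZ and -1.33 ± 0.29 (edgeR adjusted p = 0.0034) in Landrace boars. At 120 days it was higher in Landrace boars by 1.77 ± 0.41 (edgeR adjusted p = 0.0493), and the interaction was 1.70 ± 0.47 (edgeR adjusted p = 0.0493). The first of these lost its call without Hb2, Hb3, Lb1, Lb2 or Lb3 (1.3 to 2.16 with 1 library left out), and the interaction without Ha1, Ha2, Ha3, Hb2, Hb3, La1, La2, La3, Lb1 or Lb2 (1.22 to 2.14); neither was called with the size factors of DESeq2. ITGA8 stood at 7.90, 12.7 and 8.93 CPM in Ha, 6.49, 7.06 and 8.70 in Hb, 14.7, 11.6 and 13.7 in La, and 14.7, 16.4 and 27.9 in Lb. Each Lb library exceeded each Hb library, with Lb3 the highest, while Ha overlapped both Hb and La. ITGA8 was called higher in Landrace boars at 120 days, by 1.46 ± 0.30 (edgeR adjusted p = 0.0366), and the call ended when any 1 of the 6 libraries was left out (1.10 to 1.63) and in limma on log2(FPKM + 1). ITGAV stood at 176, 128 and 160.3 CPM in Ha, 72.9, 41.2 and 24.8 in Hb, 154, 106 and 180.1 in La, and 67.1, 67.1 and 51.1 in Lb. The ages did not overlap within a breed, and Hb1 lay above the Lb libraries while Hb2 and Hb3 lay below them. ITGAV fell by a log2 fold change of -1.74 ± 0.37 (edgeR adjusted p = 0.00419) in HZ and -1.24 ± 0.20 (edgeR adjusted p = 0.000639) in Landrace boars; without Hb1 the value in HZ boars was -2.22. ITGA2B ranged over 1.80 to 4.88 CPM and was not called in any comparison. By mean FPKM, ITGA5 was the highest of the 17 alpha chains in Ha, La and Lb and ITGAV in Hb, at 23.5 ± 1.60, 23.4 ± 2.04, 7.40 ± 3.38 and 4.73 ± 2.35 FPKM (SD, n = 3). The order differed by library: in FPKM ITGAV was above ITGA5 in Ha1 (25.13 and 24.99), Ha3 (24.09 and 23.8), La3 (25.51 and 24.72), Lb1 (6.62 and 5.61) and Lb3 (5.74 and 5.29). In Lb3 ITGA9, at 6.43 FPKM, was above both, and in Hb3 ITGA6, at 2.81 FPKM, was above ITGAV, at 2.36, so neither chain led in each library of its groups; without Ha2 the mean FPKM of ITGAV led in Ha, and without Lb2 in Lb.

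ITGA4 and ITGA9 are related chains that bind VCAM1 or tenascin. ITGA4 stood at 10.3, 7.75 and 8.15 CPM in Ha, 1.22, 1.44 and 0.528 in Hb, 10.9, 12.7 and 16.5 in La, and 1.94, 1.84 and 2.36 in Lb. Each 30-day library lay above each 120-day library, and at 120 days each Lb library exceeded each Hb library. ITGA4 fell by a log2 fold change of -3.02 ± 0.40 (edgeR adjusted p = 0.00041) in HZ and -2.69 ± 0.25 (edgeR adjusted p = 2.59e-05) in Landrace boars, and was not called between the breeds at 120 days, at 0.97 ± 0.47 (edgeR adjusted p = 0.238). ITGA9 ranged over 20.5 to 105 CPM and fell by a log2 fold change of -1.98 ± 0.17 (edgeR adjusted p = 5.95e-05) in HZ and -1.14 ± 0.13 (edgeR adjusted p = 7.55e-05) in Landrace boars. It was 1 of 6 genes that passed the adjusted p at 120 days whatever the size of the difference, at 0.98 ± 0.18 (edgeR adjusted p = 0.0267), just under the threshold of 1.

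The alpha chains of leukocytes are ITGAL, ITGAM and ITGAD, which pair with ITGB2, and ITGAE, which pairs with ITGB7. Leukocyte markers, led by LCP1, summed to 72.8, 77.5 and 87.3 CPM in Ha, 14.3, 5.67 and 5.61 in Hb, 140.4, 129.6 and 132 in La, and 10.6, 25.0 and 36.6 in Lb, and macrophage markers, led by CSF1R, to 124, 101 and 106 CPM in Ha, 17.4, 20.1 and 10.7 in Hb, 122, 107 and 115 in La, and 21.3, 37.9 and 35.9 in Lb. Both sums were lower in each 120-day library than in each 30-day library; their part in the results of these chains was not tested. ITGAD stood at 3.72, 4.02 and 4.23 CPM in Ha, 1.16, 0.371 and 0.528 in Hb, 2.04, 1.61 and 2.31 in La, and 0.509, 0.518 and 0.565 in Lb. Each group at 30 days lay above both groups at 120 days, and each Ha library exceeded each La library. ITGAD fell by a log2 fold change of -2.54 ± 0.47 (edgeR adjusted p = 0.00223) in HZ (-3.15 to -2.26 with 1 library left out) and -1.88 ± 0.35 (edgeR adjusted p = 0.00136) in Landrace boars, and at 30 days was lower in Landrace boars at a log2 fold change of -1.01 ± 0.24 (edgeR adjusted p = 0.0214). The breed difference lies at the threshold of 1 and lost its call without Ha1, Ha2, Ha3, La1 or La2, and in DESeq2. ITGAM stood at 0.806, 1.16 and 1.63 CPM in Ha, 5.22, 1.21 and 9.23 in Hb, 2.21, 0 and 7.11 in La, and 0, 6.97 and 1.03 in Lb. ITGAM varied widely within each group but Ha, with 0 counts in La2 and Lb1, where 3 counts would be 0.151 and 0.139 CPM. It was called higher with age in HZ boars, at 2.11 ± 0.71 (edgeR adjusted p = 0.03), although Ha and Hb overlapped, and the call ended without Ha1, Ha2, Ha3, Hb1 or Hb3 (1.42 to 2.56 with 1 library left out), in limma on FPKM and in the fit of all 12 libraries. ITGAL ranged over 1.16 to 43.1 CPM and fell by a log2 fold change of -2.05 ± 0.63 (edgeR adjusted p = 0.0213) in HZ and -1.67 ± 0.36 (edgeR adjusted p = 0.00321) in Landrace boars, the first of which was not called without Hb3 (-2.66 to -1.59). ITGAE had at most 2.22 CPM and 0 counts in Hb3 and La3, where 3 counts would be 0.198 and 0.119 CPM. ITGAD, ITGAM and ITGAL lie close together on chromosome 3, ITGAE overlaps GSG2, and the 4 chains had counts that were not whole, so their separate levels are less certain.

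Among the integrin beta chains, ITGB1 pairs with most alpha chains, ITGB2 is the chain of leukocytes, ITGB4 pairs with ITGA6 in epithelia and ITGB5 pairs with ITGAV. ITGB2 stood at 24.7, 21.6 and 24.9 CPM in Ha, 2.32, 2.74 and 1.71 in Hb, 32.2, 28.5 and 29.1 in La, and 3.79, 9.13 and 8.06 in Lb. Each 120-day library lay below each 30-day library, and at 120 days each Lb library exceeded each Hb library. ITGB2 fell by a log2 fold change of -3.38 ± 0.23 (edgeR adjusted p = 1.95e-05) in HZ and -2.08 ± 0.30 (edgeR adjusted p = 0.00033) in Landrace boars. Its interaction of 1.28 ± 0.39 (edgeR adjusted p = 0.0709) and its difference of 1.67 ± 0.41 (edgeR adjusted p = 0.0576) at 120 days missed the threshold in edgeR and were called by DESeq2. ITGB4 stood at 0.460, 0.402 and 0.505 CPM in Ha, 0.522, 2.37 and 2.44 in Hb, 1.48, 2.26 and 2.15 in La, and 3.56, 5.37 and 0 in Lb. ITGB4 was low throughout: Ha was tight and below each La and each Hb library, and Lb ran from 0 counts in Lb3, where 3 counts would be 0.154 CPM, to the highest level in Lb2. It was called higher in Landrace boars at 30 days, by 2.09 ± 0.34 (edgeR adjusted p = 0.00588), also with each of the 6 libraries left out (2.0 to 2.27), and not in the fit of all 12 libraries or in limma on log2(FPKM + 1). Its call with age in HZ boars, at 1.95 ± 0.61 (edgeR adjusted p = 0.0235), ended without Ha1, Ha2, Ha3, Hb2 or Hb3 (1.66 to 2.39), in limma on FPKM and in the fit of all 12 libraries. ITGB5 stood at 266, 278 and 345 CPM in Ha, 106, 196 and 122 in Hb, 388, 435 and 415 in La, and 255, 173 and 166 in Lb. ITGB5 did not overlap between the ages in either breed, nor between the breeds at 30 days. It fell by a log2 fold change of -1.07 ± 0.24 (edgeR adjusted p = 0.00548) in HZ and -1.05 ± 0.17 (edgeR adjusted p = 0.000586) in Landrace boars, close to the threshold of 1. The call in HZ boars ended without Ha3, Hb1 or Hb3 (-1.40 to -0.89 with 1 library left out) and that in Landrace boars without Lb2 or Lb3 (-1.26 to -0.94). By mean FPKM ITGB5 led the 8 beta chains in each group, with 86.6 ± 12.2 in Ha, 29.9 ± 12.4 in Hb, 118 ± 7.40 in La and 45.8 ± 10.1 in Lb (SD, n = 3). ITGB1 came next, with 65.7 ± 2.43, 28.6 ± 7.89, 67.5 ± 7.19 and 37.2 ± 5.66 FPKM in the same order. At 120 days the order differed by library: in FPKM ITGB1 was above ITGB5 in Hb1 (23.69 and 20.67) and Lb3 (43.52 and 41.34) and near it in Hb3 (24.43 and 25.1); without Hb2 the mean FPKM in Hb was 24.1 for ITGB1 and 22.9 for ITGB5, so the lead of ITGB5 in Hb rests on Hb2.

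ITGB1 ranged over 157 to 345 CPM and passed the adjusted p with age without reaching the threshold of 1 in size, at -0.73 ± 0.15 (edgeR adjusted p = 0.00431) in HZ and -0.56 ± 0.12 (edgeR adjusted p = 0.00351) in Landrace boars. Among the alternatives, total counts and both limma settings called ITGB1 lower in HZ boars. ITGB3, a partner of ITGAV and ITGA2B, ranged over 2.203 to 11.05 CPM and fell by a log2 fold change of -1.5 ± 0.35 (edgeR adjusted p = 0.00638) in HZ and -1.16 ± 0.21 (edgeR adjusted p = 0.00127) in Landrace boars. ITGB7, a chain of lymphocytes, ranged over 0.989 to 12.3 CPM and fell by a log2 fold change of -2.0 ± 0.35 (edgeR adjusted p = 0.00173) in HZ and -2.03 ± 0.26 (edgeR adjusted p = 0.000174) in Landrace boars. ITGB8, another partner of ITGAV, ranged over 17.4 to 32.9 CPM and was not called in any comparison; with age its value was 0.37 ± 0.23 (edgeR adjusted p = 0.181) in HZ boars. Counts of ITGB3, ITGB4, ITGB7 and ITGAV were not whole in some libraries, so their levels are less certain. ITGB6 had 0.127 to 0.437 CPM and at most 11 counts in a library. ITGBL1 stood at 4.45, 7.47 and 4.85 CPM in Ha, 5.80, 3.02 and 4.02 in Hb, 12.5, 10.7 and 13.8 in La, and 7.22, 8.002 and 8.37 in Lb. Each La library of this beta-like gene exceeded each Ha library, and each Lb library exceeded each Hb library. ITGBL1 was called higher in Landrace boars at 30 days, by 1.14 ± 0.23 (edgeR adjusted p = 0.0133), though not without Ha1 or La3 (1.0 to 1.41 with 1 library left out) or in limma on log2(FPKM + 1), and was not called at 120 days, at 0.93 ± 0.30 (edgeR adjusted p = 0.103).

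Since 12 of the alpha chains can pair with ITGB1, their summed FPKM was set against that of ITGB1 as a description without a test, a quantity chosen after the values had been seen. The ratio of FPKM was 1.39, 1.197 and 1.43 in Ha, 0.733, 0.463 and 0.505 in Hb, 1.23, 1.13 and 1.21 in La, and 0.734, 1.03 and 0.682 in Lb. It lay above 1 in each 30-day library and in Lb2, and below 1 in the other 5 libraries at 120 days. Mean ratios were 1.34 ± 0.125 in Ha, 0.567 ± 0.146 in Hb, 1.19 ± 0.0515 in La and 0.815 ± 0.187 in Lb (SD, n = 3). Some of these chains also pair with other beta chains, ITGA6 with ITGB4, ITGA4 with ITGB7 and ITGAV with ITGB3, ITGB5, ITGB6 and ITGB8. All 17 alpha chains together summed to 94.0 ± 6.50 FPKM in Ha, 17.9 ± 2.68 in Hb, 88.9 ± 10.8 in La and 32.8 ± 4.91 in Lb. The 8 beta chains summed to 166 ± 10.2, 63.9 ± 22.0, 204 ± 10.3 and 91.0 ± 10.7 FPKM in the same order, and in each library the beta sum exceeded the alpha sum.

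Beside the laminins, the basement membrane holds type IV collagens, nidogens, perlecan (HSPG2) and other partners, of which 15 genes were listed and 14 passed the filter. With age, 9 of the 14 were called lower and 1 higher in HZ boars (median -2.32), and 7 lower and 1 higher in Landrace boars (median -1.04). Over the genes tested the shares were 23.2% lower and 28.2% higher in HZ boars, and 20.1% and 27.5% in Landrace boars, which also holds beside the counts of the adaptors, receptors and ligands. At 120 days 8 of the 14 were called higher in Landrace boars (median 1.67), where 2.65% of the genes tested were called higher and 1.2% lower; edgeR called 0 of the 14 lower, and 0 had an unadjusted p under 0.05 with a lower level, while DESeq2 called 9 higher and 0 lower. The 8 were COL4A1, COL4A2, COL4A3, COL4A4, COL4A5, COL15A1, HSPG2 and SPARC. COL4A1, with COL4A2 the main type IV collagen of basement membranes, had 763 ± 58.2 CPM in Ha, 57.5 ± 21.2 in Hb, 776 ± 107 in La and 398 ± 19.6 in Lb (mean ± SD, n = 3), and COL4A2 990.5 ± 140.2, 56.5 ± 23.3, 1103 ± 87.4 and 361 ± 33.0. At 120 days they were higher in Landrace boars by 2.85 ± 0.24 (edgeR adjusted p = 0.0042) and 2.72 ± 0.28 (edgeR adjusted p = 0.00627), calls that held with each library left out in turn. COL4A2 fell by a log2 fold change of -4.13 ± 0.33 (edgeR adjusted p = 3.91e-05) in HZ and -1.60 ± 0.11 (edgeR adjusted p = 5.34e-06) in Landrace boars; COL4A1 fell by a log2 fold change of -3.73 ± 0.28 (edgeR adjusted p = 2.92e-05) in HZ boars and was not called in Landrace boars, at -0.95 ± 0.13 (edgeR adjusted p = 0.000222). COL4A3, of the type IV collagen known from the kidney filter, went the other way in Landrace boars, with 4.38 ± 1.09 CPM in La and 45.5 ± 17.6 in Lb, a log2 fold change of 3.39 ± 0.33 (edgeR adjusted p = 3.31e-05), with 12.6 ± 8.44 in Ha and 10.7 ± 1.64 in Hb. At 120 days COL4A3 was higher in Landrace boars by 2.15 ± 0.31 (edgeR adjusted p = 0.015) and COL4A4 by 2.47 ± 0.40 (edgeR adjusted p = 0.0207). COL15A1 differed by 2.2 ± 0.29 (edgeR adjusted p = 0.0119), COL4A5 by 1.56 ± 0.32 (edgeR adjusted p = 0.0353), HSPG2 by 1.79 ± 0.37 (edgeR adjusted p = 0.0356) and SPARC, a collagen-binding protein, by 2.65 ± 0.48 (edgeR adjusted p = 0.0249). These 6 lost their calls more easily: COL4A3 without Hb3 or Lb2, COL4A4 without Lb2 or Lb3 and in the fit of all 12 libraries, COL15A1 without Lb2, COL4A5 and HSPG2 without Hb2, Hb3, Lb1, Lb2 or Lb3, and SPARC without Hb3, Lb1, Lb2 or Lb3. With 1 library left out the values ran from 1.79 to 2.39 for COL4A3, 2.16 to 2.86 for COL4A4, 1.99 to 2.60 for COL15A1, 1.28 to 1.95 for COL4A5, 1.52 to 2.32 for HSPG2 and 2.27 to 3.34 for SPARC. The count of 8 was 9 without Hb1, 6 without Hb2, 4 without Hb3 or Lb3, 5 without Lb1 and 2 without Lb2, where 1 of the 14 was also called lower. Peritubular and stromal markers, of which 5 of 10 were called higher in Lb, moved in the same comparison and their part was not tested.

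Inside the cell, talins, kindlins and the complex of ILK, PINCH (LIMS) and parvin proteins link integrins to actin. Of the 19 listed activators and adaptors tested, 10 were called lower and 1 higher with age in HZ boars (median -1.05), and 6 lower and 1 higher in Landrace boars (median -0.71), where 23.2% and 20.1% of the genes tested were called lower. The gene called higher in both was LIMS2, with 19.5 ± 0.418 CPM in Ha, 78.7 ± 74.7 in Hb, 24.3 ± 1.96 in La and 219 ± 28.0 in Lb. LIMS2 rose by 2.02 ± 0.61 (edgeR adjusted p = 0.0202) in HZ boars, a call that ended without Ha1, Ha2, Ha3 or Hb1 (0.87 to 2.35 with 1 library left out) and in limma on FPKM, and by 3.19 ± 0.13 (edgeR adjusted p = 2.28e-07) in Landrace boars. At 120 days 2 of the 19, TLN2 and PARVA, were called higher in Landrace boars, where the share over the genes tested was 2.65%: TLN2 from 69.3 ± 23.97 to 154 ± 23.2 CPM by 1.2 ± 0.24 (edgeR adjusted p = 0.0352), and PARVA from 9.69 ± 3.12 to 23.3 ± 2.54 CPM by 1.31 ± 0.26 (edgeR adjusted p = 0.0317). Both calls ended without Hb3, Lb1, Lb2 or Lb3 (1.0 to 1.47 for TLN2 and 1.12 to 1.56 for PARVA with 1 library left out). Of the 10 other laminin receptors, such as dystroglycan (DAG1) and CD151, 4 were called lower in HZ (median -0.92) and 3 in Landrace boars with age (median -0.89), where the shares over the genes tested were 23.2% and 20.1%.

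Integrin ligands outside the laminins include fibronectin, vitronectin, tenascin and osteopontin (SPP1). Of the 17 tested, 9 were called lower and 1 higher with age in HZ boars (median -1.40), and 10 lower and 2 higher in Landrace boars (median -1.22). At 30 days 2 were higher in Landrace boars and 1 lower (median -0.12), where 3.6% of the genes tested were called higher and 4.01% lower, and at 120 days 3 were higher (median 0.52), where 2.65% were. Those 3 were FBN1, a chain of microfibrils, with 75.8 ± 26.9 CPM in Hb and 348 ± 12.1 in Lb, THBS1, with 4.21 ± 1.24 and 16.5 ± 5.10, and TGFB3, a growth factor, with 3.87 ± 1.13 and 12.2 ± 1.95. The differences were 2.25 ± 0.25 (edgeR adjusted p = 0.0084) for FBN1, 2.0 ± 0.34 (edgeR adjusted p = 0.0229) for THBS1 and 1.70 ± 0.30 (edgeR adjusted p = 0.0241) for TGFB3. FBN1 kept its call with each library left out; THBS1 lost it without Hb3, Lb1 or Lb2 (1.75 to 2.22) and in limma on log2(FPKM + 1), and TGFB3 without Hb3, Lb1, Lb2 or Lb3 (1.48 to 1.84). SPP1 and MADCAM1, the vascular ligand of ITGA4 with ITGB7, had the largest falls of the 4 pathway lists in La vs Lb. SPP1 went from 20.3 ± 7.17 to 2.68 ± 1.24 CPM, a log2 fold change of -2.90 ± 0.41 (edgeR adjusted p = 0.000315), and MADCAM1 from 6.64 ± 3.85 to 0.944 ± 0.383 CPM, a log2 fold change of -2.80 ± 0.49 (edgeR adjusted p = 0.00107). In HZ boars neither was called, and at 30 days both were higher in Landrace boars, SPP1 by 2.72 ± 0.40 (edgeR adjusted p = 0.00431) and MADCAM1 by 2.03 ± 0.42 (edgeR adjusted p = 0.0138). SPP1 had an interaction of -3.76 ± 0.67 (edgeR adjusted p = 0.0109).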

How the data were processed

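Testis RNA of 12 boars, 3 in each group of breed and age, was described from the deposited coding-gene table. According to the paper's methods, the authors filtered reads with fastp 0.18.0, removed ribosomal reads with Bowtie2 2.2.8, mapped to Sus scrofa 11.1 with HISAT2 2.1.0 and assembled transcripts with StringTie 1.3.4. The table holds estimated counts, as deposited by the authors, and FPKM values, also deposited by the authors, for each gene and library; the tool behind the counts is not named. Deposited KEGG and GO columns were not used, and 0 per-sample columns were unmatched.

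Counts were rounded, filtered with filterByExpr (minimum count 10) and scaled by TMM in edgeR 4.0.16 (R 4.3.3). The quasi-likelihood test was fitted over all genes passing the filter, on the 6 libraries of each pair of groups and on all 12 for the interaction, with Benjamini-Hochberg adjustment. The SE is the absolute log2 fold change divided by the square root of F. The fit was tested on simulated data.

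Genes named in full were those called between breeds or in the interaction, the 3 called with the largest fold change in each direction with age, and the one with the highest mean FPKM of each class in each group. Genes of the 4 pathway lists were named if called in Hb vs Lb or among the 2 largest in each direction with age. Members and lists were chosen with earlier results of these data known. ITGAX and PF4, both listed, were not in the table. CD163 has more than 1 entry, and the entry with the most counts was used. Positions are from RefSeq for Sscrofa11.1, found for 38 of 38 genes. Results of 2 genes are not reported here.

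Alternatives were DESeq2 1.42.0, its size factors in edgeR (RLE), total counts alone, limma 3.58.1 on log2(FPKM + 1) and log2(FPKM + 0.1), no filter, 1 fit of all 12 libraries, a replicate block, each library left out, and shares from CPM per kilobase. Tables and figures were made with Python 3.11.15, pandas 2.3.3, numpy 2.4.6 and matplotlib 3.10.9.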

Additional observations from a re-analysis of the deposited data

Results flagged for a closer look

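The test of the interaction of breed and age gave 5 laminin and integrin genes an edgeR adjusted p under 0.05, over the 17332 genes tested. For these genes the change with age differed between HZ and Landrace boars. The share of all genes tested that met this criterion was not taken. On the log2 scale, as the change in Landrace boars over that in HZ boars, the difference was 1.80 ± 0.36 (edgeR adjusted p = 0.0165) for ITGA11 and 1.70 ± 0.47 (edgeR adjusted p = 0.0493) for ITGA5. It was 1.28 ± 0.32 (edgeR adjusted p = 0.035) for ITGA3 and 1.07 ± 0.27 (edgeR adjusted p = 0.0379) for LAMA2. ITGA9 also passed, at 0.82 ± 0.21 (edgeR adjusted p = 0.0379), with a size under the threshold of 1. With each library left out in turn, ITGA11 kept its call in 12 of 12 fits, ITGA3 in 4, and ITGA5 and LAMA2 in 2 each. ITGA9, which was not called, was not followed in those fits. ITGA5, ITGA9, ITGA11 and LAMA2 fell in both breeds and fell less in Landrace boars, while ITGA3 was lower at 120 days in HZ and higher in Landrace boars, neither of which was called. No formal test for libraries far from the others was run in groups of 3, where the chi-square per gene in the Results describes the spread.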

How the results depend on the processing

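Of 53 log2 fold changes of called laminin and integrin genes, 27 kept their direction and call under each alternative, 26 lost the call under at least 1, and 0 reversed; over the pairs of fold change and alternative, 639 kept the call and the others lost it. The 12 shares of the laminin chains that led by mean FPKM moved by less than 1 SD with CPM per kilobase. The lengths used there came from the same deposited counts and FPKM, so the shares could hardly move and this is no check of them. With 3 libraries, leaving 1 out cannot move a mean by 1 SD, so this is no check of the shares either. LAMC3 in Hb, which led by mean FPKM and not by mean share, went from 48.1% to 40.5% without Hb1. In Ha vs Hb the higher count of 2 was 0 with limma on log2(FPKM + 1), limma on log2(FPKM + 0.1) and all 12 libraries in 1 fit, and 0 to 1 with 1 library left out; the lower count of 20 ran from 17 to 21 with 1 left out and was 23 with total counts, 24 with limma on log2(FPKM + 0.1) and 18 with a pseudocount of 1. In La vs Lb the higher count of 1 was 0 with both limma settings and 0 to 2 with 1 library left out, and the lower count of 19 ran from 18 to 19 with 1 left out and was 20 with total counts, 18 with DESeq2 and with RLE factors, and 16 with limma on log2(FPKM + 1). In Ha vs La the higher count of 2 was 0 with limma on log2(FPKM + 1), 1 with all 12 libraries and 1 to 3 with 1 library left out. The lower count of 1 there was 0 with DESeq2, RLE factors, both limma settings and all 12 libraries, and 0 to 1 with 1 library left out. In Hb vs Lb the higher count of 4 was 6 with DESeq2, total counts, limma on log2(FPKM + 0.1) and all 12 libraries, 2 with RLE factors, 2 with limma on log2(FPKM + 1) and 0 to 5 with 1 library left out, and the lower count was 0 throughout. The interaction count of 4 was 6 with DESeq2, 5 with limma on log2(FPKM + 0.1), 3 with RLE factors and with no filter, 2 with limma on log2(FPKM + 1) and 1 to 5 with 1 library left out. The cause was not tested.

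With a replicate block, which pairs libraries of the same number, counts were 0 higher in Ha vs Hb, 0 lower in Ha vs La, 0 higher in Hb vs Lb and 2 in the interaction. The numbers do not pair boars in the labels; deviations of libraries of the same number correlated at -0.0222 to 0.0527 across genes, and each library matched its own number best in Ha vs Hb alone, in 3 of 3.

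Over the genes tested, calls moved by more than 1.5 times in Hb vs Lb (628; 1176 with DESeq2, 1258 with all 12 libraries, 154 with the replicate block, 97 to 1029 with 1 library left out), in the interaction (890; 1364 with DESeq2, 1365 with limma on log2(FPKM + 0.1), 437 to 1242 with 1 left out) and in Ha vs La (1192; 507 with limma on log2(FPKM + 1)). The split into higher and lower calls shifted in Ha vs Hb from 4666 and 3844 to 3978 and 5039 with total counts, 2813 and 3834 with limma on log2(FPKM + 1), and 3596 and 5735 on log2(FPKM + 0.1). In La vs Lb the split went from 4574 and 3352 to 2918 and 2668 on log2(FPKM + 1) and 3806 and 4445 on log2(FPKM + 0.1). For Hb vs Lb it went from 432 and 196 to 409 and 104 on log2(FPKM + 1) and 667 and 167 on log2(FPKM + 0.1). For the interaction it went from 609 and 281 to 811 and 553 with DESeq2 and 882 and 199 with total counts. Depth limited ITGB6, LAMB4 and ITGAE, with at most 11, 15 and 48 counts in a library.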

Other observations

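Agrin (AGRN), a heparan sulfate proteoglycan of basement membranes that binds laminin, was chosen from the list of basement membrane partners after its values had been seen. AGRN stood at 406, 332 and 485 CPM in Ha, 29.6, 65.2 and 54.4 in Hb, 8.31, 13.0 and 12.2 in La, and 4.53, 38.7 and 3.18 in Lb. Each Ha library exceeded each La library by far. At 120 days Hb and Lb overlapped through Lb2 alone, and Lb1 and Lb3 lay far below each Hb library. At 30 days AGRN was lower in Landrace boars by a log2 fold change of -5.19 ± 0.22 (edgeR adjusted p = 3.73e-05), and with each library left out in turn the value ran from -5.32 to -5.00. In HZ boars it fell with age by a log2 fold change of -3.04 ± 0.31 (edgeR adjusted p = 0.000122), and in Landrace boars it was not called, at 0.48 ± 0.81 (edgeR adjusted p = 0.614), a value that rests on Lb2: Lb2 stood above each La library, and Lb1 and Lb3 below each. Epithelial markers, led by KRT8, summed to 350.5, 607 and 455 CPM in Ha and to 215, 67.9 and 112 in La. KRT8 alone stood at 337, 587 and 435 CPM in Ha and 201, 57.0 and 102 in La. EPCAM was under 1 CPM in each 30-day library, and CDH1, KRT18 and KRT19 overlapped between Ha and La. Of these markers, 1 of 5 was called lower in Ha vs La, and the other marker lists are given above. Their part in the AGRN difference was not tested.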
